A study of Bos taurus with 8 samples.

Results

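ACTB, ACTG1, TMSB4X, TMSB10, PFN1, CFL1, ARPC2, MYL6, MYL9 and TPM1 encode the actin of non-muscle cells and proteins that hold, recycle, branch and pull on it. The 10 genes were picked by name from the 16606 genes of the deposited table, with their levels in these libraries already known, and all 10 are in the table and passed the filter on low values. Which values led to the choice is not recorded, so every fold change and p-value of a member below is a description and no independent support. The study sequenced RNA of bovine embryos made in vitro from slaughterhouse oocytes and Holstein semen, either control embryos or embryos edited in RPL12, a gene of the large ribosomal subunit. Edited embryos had received PEmax together with its guide RNA as zygotes, by injection into the cytoplasm. This prime editor joins a Cas9 nickase to a reverse transcriptase. The design text names the change A148G, the protocol calls it prime editing and the titles call it base editing. Each library came from a pool of 5 embryos, so embryos of different editing outcome within a pool cannot be separated.

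The 4 groups were control 4-cell, edited 4-cell, control 8-cell and edited 8-cell embryos, with 2 libraries in each. In vitro maturation, fertilisation and culture were common to all groups, and it is not said whether controls received a mock injection. The 4-cell samples carry the source name oocytes while their titles name 4-cell embryos, and the titles were followed. No label says that the libraries of a group came from separate fertilisation runs, so that p-values measure the spread between these libraries, which may be technical.

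Actin monomers assemble into filaments that give a cell its cortex, divide it at cytokinesis and carry its contacts. Beta-thymosins bind monomers and keep them out of filaments, profilin delivers monomers to growing ends, cofilin severs old filaments, and the Arp2/3 complex starts new branches. Tropomyosin lies along filaments, and non-muscle myosin II, with its light chains, pulls on them. In cleaving embryos, transcripts inherited from the oocyte are broken down while the embryo's own genome is switched on, which in cattle takes place mainly around the 8-cell stage.

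Between 33527531 and 35122409 reads per library were recovered from the deposited CPM, so counting error was small for every member. CPM are reads per 1000000 reads, here up to a small scaling by library, as the libraries summed to between 992528 and 1007020 CPM. RPL12 itself was lower in edited embryos, with log2 fold changes of -2.41 in 4-cell and -2.81 in 8-cell embryos (limma adjusted p-values 2.36e-06 and 2.99e-06); a transcript level does not show whether the edit is present. Embryo pools can carry somatic cells of the follicle, so markers of such cells were summed, from lists written with earlier results of these data known. The 20 cumulus and granulosa markers summed to 1900 and 1524 CPM in the control 4-cell libraries, 478 and 533 in edited 4-cell, 667 and 1021 in control 8-cell, and 526 and 501 in edited 8-cell. Of the 19 tested, 13 were lower and 1 (HAS2) was higher in edited 4-cell embryos, where 25.8% of all genes tested were lower and 18.9% higher, and 6 were lower at the 8-cell stage, where 14.5% of all genes were. FOXL2, a transcription factor that defines granulosa cells, was at 0 in 4 libraries and at 0.464 CPM at most, whereas CYP11A1, a steroid-making enzyme, stood at 227 and 201 CPM in control 4-cell and at 3.33 and 14.5 CPM in edited 4-cell libraries. The 10 markers of fibroblasts, theca and smooth muscle, mostly LUM, summed to 4149 and 7258 CPM in control 4-cell, 1453 and 2089 in edited 4-cell, 3522 and 3022 in control 8-cell, and 241 and 864 in edited 8-cell libraries. In this list CYP17A1 reached 0.0598 CPM at most, PDGFRB 1.71, COL1A1 3.36 and COL3A1 11.2. The highest values of COL1A2, ACTA2, PDGFRA, DCN and TAGLN lay between 70.4 and 981 CPM, and that of LUM was 5965 CPM. Of the 8 tested, 7 were lower in edited embryos at each stage, against the same 25.8% and 14.5% of all genes, with ACTA2 and TAGLN among them. The 10 oocyte markers had sums of 5974 and 8536 CPM in control 4-cell, 15029 and 13827 in edited 4-cell, 12381 and 10319 in control 8-cell, and 15064 and 16916 in edited 8-cell libraries. Much of the 4-cell difference was in OOSP2, with 674 and 1189 CPM in control and 6669 and 6196 CPM in edited 4-cell libraries. Without OOSP2 the oocyte sums were 5300.1 and 7347 CPM in control 4-cell, 8359.7 and 7631 in edited 4-cell, 9559.7 and 8076 in control 8-cell, and 11801 and 13903.5 in edited 8-cell libraries. Of the 10 oocyte markers 4 were higher in edited 4-cell embryos and 2 in edited 8-cell embryos, against 18.9% and 1.08% of all genes. None was called lower, while ZP3 (-0.34), ZP4 (-0.16) and KPNA7 (-0.35) were uncalled values below 0 at the 4-cell stage. The 4 endothelium markers summed to 52.9 and 85.5 CPM in control 4-cell, 124 and 82.7 in edited 4-cell, 94.0 and 136 in control 8-cell, and 161 and 128 in edited 8-cell libraries, so that they were not lower in edited embryos as a list; TEK, an endothelial receptor, was higher at the 4-cell stage by 1.28 (limma adjusted p 0.0051). Markers of leukocytes and blood summed to 12.6 to 24.3 CPM, with PTPRC at 0.673 CPM at most. Of the 3 tested, CD68 was lower in edited 4-cell embryos (log2 fold change -1.16, limma adjusted p 0.0411), where 25.8% of all genes were lower. At the 8-cell stage CD3E was higher (1.23, limma adjusted p 0.0369), where 1.08% of all genes were higher. CD68 reached 2.87 CPM at most and CD3E 10.6 CPM. The part of follicle cells in the results below was not tested, and in bulk samples fewer cells of a type and less RNA per cell cannot be told apart.

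**Figure D1:**
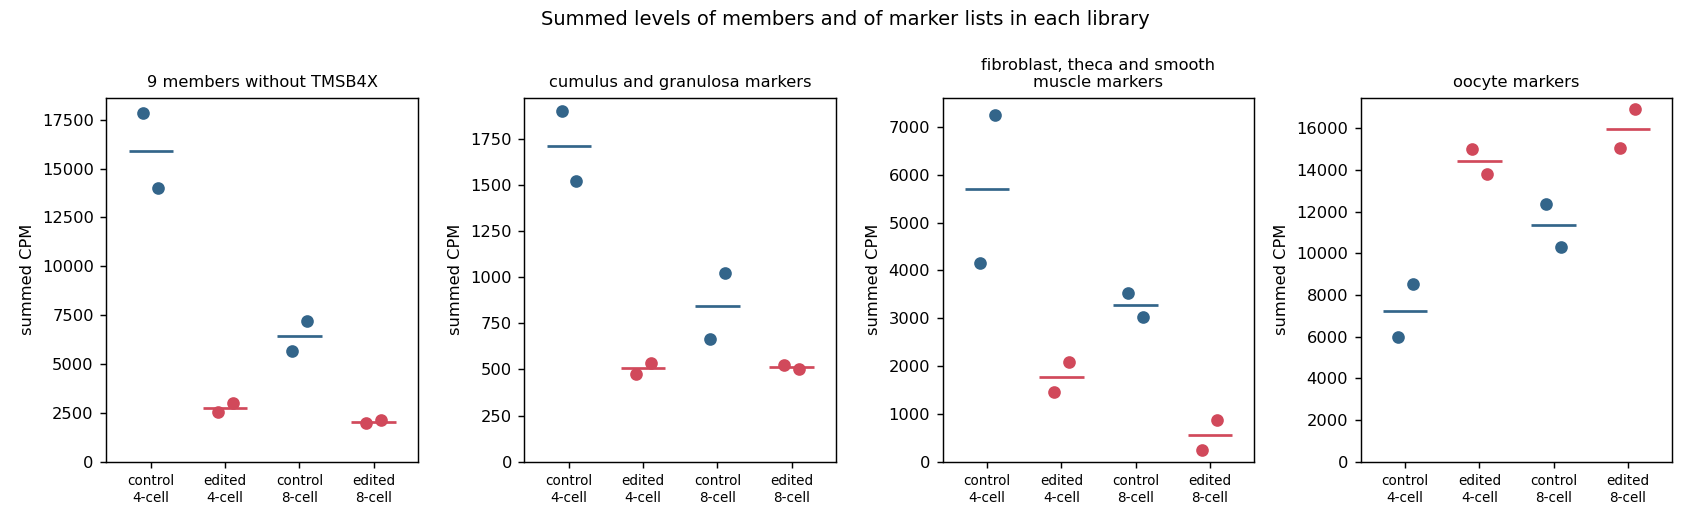
Summed CPM (vertical axes from 0) of the 9 members without TMSB4X and of 3 marker lists, for each of the 8 libraries in 4 groups; points are libraries and lines are group means. The summed members and the follicle-cell markers are highest in control 4-cell embryos, and the oocyte markers are lowest there.

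The comparison of edited with control embryos asks which transcripts differed after editing of RPL12. At the 4-cell stage 9 of the 10 members were lower in edited embryos and TMSB4X was not, and at the 8-cell stage 8 were lower. Of all 12129 genes tested, 25.8% were lower and 18.9% higher at the 4-cell stage, and 14.5% were lower and 1.08% higher at the 8-cell stage. The median log2 fold change of the 10 members was -2.40 in 4-cell and -1.49 in 8-cell embryos, against -0.02 and 0.00 over all genes tested. Apart from TMSB4X, the members together took 17822 and 14000.1 CPM in control 4-cell libraries and 2519 and 2993 CPM in edited ones. The same sum was 5687 and 7208 CPM in control 8-cell libraries and 1963 and 2129 CPM in edited ones. Every edited library thus lay below every control library, and the edited pools of both stages ranged from 1963 to 2993 CPM.

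**Figure D2:**
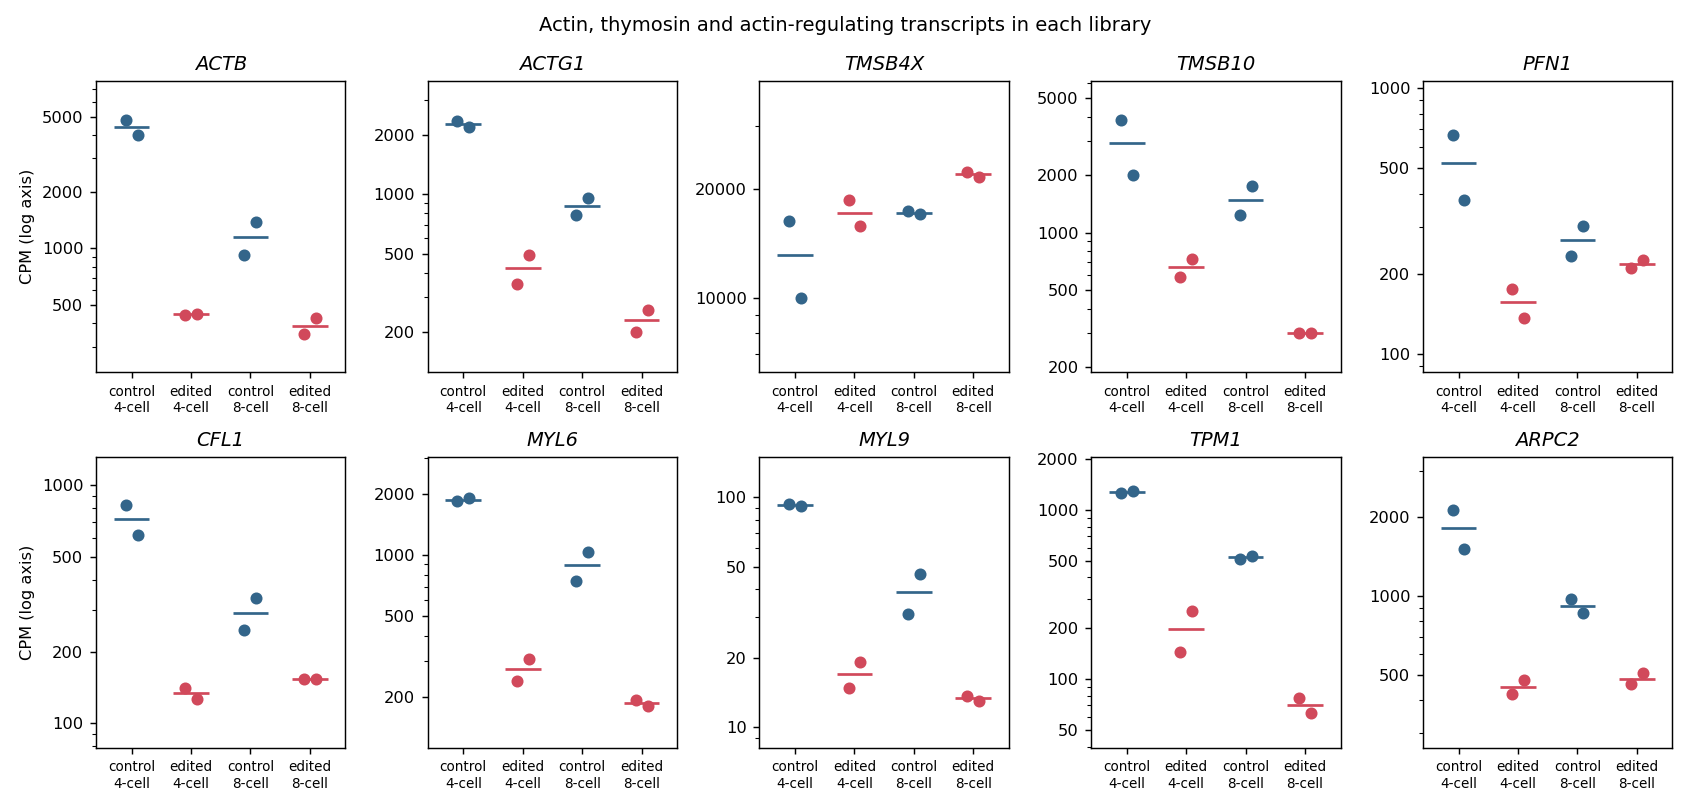
CPM of each member (log axes, 1 panel per gene) in control (blue) and edited (red) libraries of each stage; points are libraries and lines are group means. In 9 panels the control 4-cell points stand highest and the edited points lie below the controls of their stage. PFN1 is among these 9 but was not called at the 8-cell stage (limma adjusted p 0.531). In the TMSB4X panel the edited 8-cell points are the highest. Over all genes tested, 25.8% were called lower in edited embryos at the 4-cell stage and 14.5% at the 8-cell stage.

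The cytoplasmic actins are the building blocks of the filament. ACTB, beta-actin, had 4826 and 4014 CPM in the control 4-cell libraries, 445 and 451 in edited 4-cell, 926 and 1386 in control 8-cell, and 353 and 426 in edited 8-cell. The control 4-cell libraries stood far above all others, the control 8-cell libraries came next, and both edited groups lay lowest. In edited embryos ACTB fell by 3.29 on the log2 scale at the 4-cell stage (SE 0.230, adjusted p 4.96e-07) and by 1.54 at the 8-cell stage (adjusted p 0.000167), and no libraries overlapped. ACTG1, gamma-actin, whose protein is nearly the same as that of ACTB, had 2338 and 2179 CPM in control 4-cell, 349.9 and 492 in edited 4-cell, 788 and 959 in control 8-cell, and 201 and 259 in edited 8-cell libraries. The order of the groups was that of ACTB, with edited 8-cell libraries lowest. ACTG1 fell by 2.44 (SE 0.228, adjusted p 1.33e-06) in 4-cell and by 1.93 (adjusted p 2.57e-05) in 8-cell embryos. The ratio of ACTB to ACTG1 within a library, in which depth cancels, was 2.06 and 1.84 in control 4-cell, 1.27 and 0.917 in edited 4-cell, 1.18 and 1.44 in control 8-cell, and 1.76 and 1.65 in edited 8-cell libraries. Its edited values lay below the control values in 4-cell embryos and above them in 8-cell embryos, with no overlap at either; this pattern was not tested. CPM are not per length, so these ratios show changes between libraries and not which gene is the more abundant.

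The beta-thymosins parted. TMSB4X, thymosin beta-4, had 16405 and 9987 CPM in control 4-cell, 18709 and 15825 in edited 4-cell, 17402 and 17067 in control 8-cell, and 22353 and 21706 in edited 8-cell libraries. The second control 4-cell library was the lowest, the edited 8-cell libraries were the highest, and at the 4-cell stage the groups overlapped. TMSB4X took between 1.0% and 2.23% of all reads of a library. Its log2 fold change was 0.43 (SE 0.269, adjusted p 0.213) in 4-cell and 0.35 (SE 0.269, adjusted p 0.438) in 8-cell embryos, whose groups did not overlap. TMSB10, thymosin beta-10, its relative with the same monomer-binding role, had 3844 and 1995 CPM in control 4-cell, 586 and 731 in edited 4-cell, 1229 and 1742 in control 8-cell, and 301 and 301 in edited 8-cell libraries. The control 4-cell libraries differed widely from each other, yet both lay above all other libraries. TMSB10 fell by 2.08 (SE 0.277, adjusted p 2.67e-05) in 4-cell and by 2.28 (adjusted p 3.22e-05) in 8-cell embryos. The ratio of TMSB4X to TMSB10 within a library was 4.27 and 5.00 in control 4-cell, 31.9 and 21.6 in edited 4-cell, 14.2 and 9.80 in control 8-cell, and 74.3 and 72.1 in edited 8-cell libraries. It was higher in every edited library than in every control library; the ratio was not tested. The row of TMSB4X holds the same reads in all 8 libraries as the row TMSB4, a separate gene in the RefSeq table, so these reads cannot be assigned to either gene. Of the 13571 rows with at least 100 reads, 245 share all their reads with another row in this way, and TMSB4X is the only member among them.

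**Figure D3:**
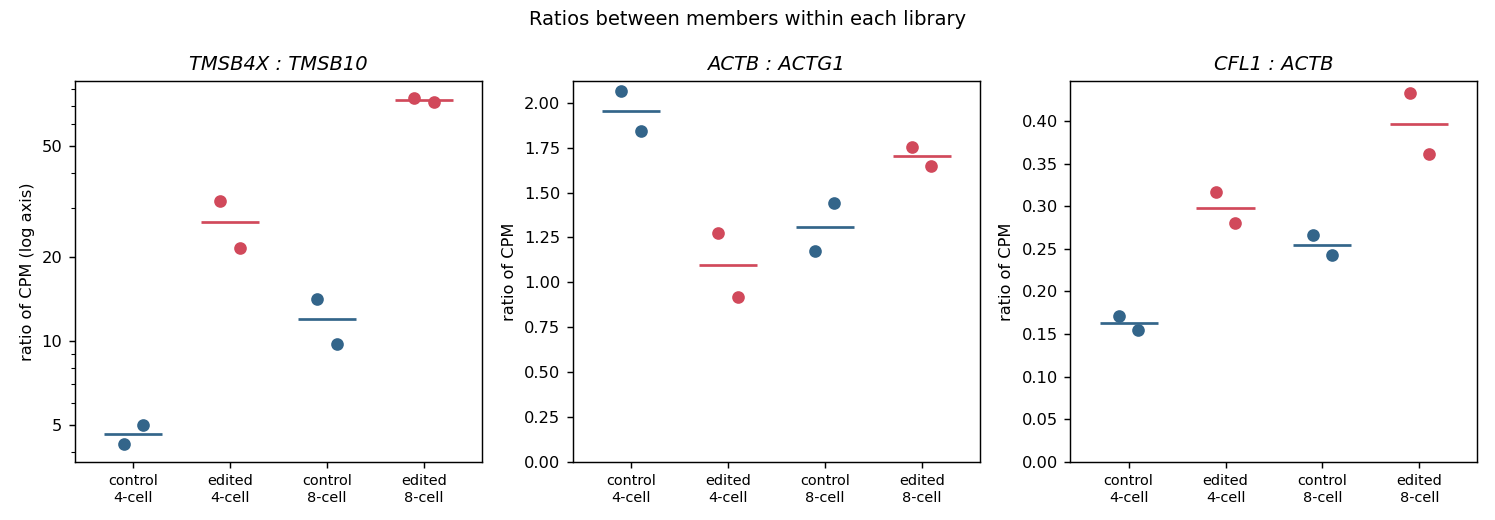
Ratios of CPM within each library for TMSB4X to TMSB10 (log axis), ACTB to ACTG1 and CFL1 to ACTB (axes from 0); points are libraries and lines are group means. The thymosin ratio runs from 4.27 to 74.3 and the CFL1 ratio from 0.154 to 0.433, each lowest in control 4-cell and highest in edited 8-cell embryos.

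Profilin and cofilin drive the turnover of filaments. PFN1 had 663 and 379 CPM in control 4-cell, 176 and 137 in edited 4-cell, 234 and 301 in control 8-cell, and 210.2 and 226 in edited 8-cell libraries. Only the 4-cell groups stood well apart; the 8-cell groups did not overlap but lay close. PFN1 fell by 1.69 (SE 0.261, adjusted p 0.0001) at the 4-cell stage, while its value at the 8-cell stage was -0.28 (SE 0.261, adjusted p 0.531). CFL1, the non-muscle cofilin, had 824 and 619 CPM in control 4-cell, 141 and 126 in edited 4-cell, 246 and 336 in control 8-cell, and 153 and 154 in edited 8-cell libraries. The edited pools of both stages were almost level. CFL1 fell by 2.41 (SE 0.227, adjusted p 1.38e-06) and by 0.90 (adjusted p 0.0108). The ratio of CFL1 to ACTB was 0.171 and 0.154 in control 4-cell, 0.316 and 0.280 in edited 4-cell, 0.266 and 0.243 in control 8-cell, and 0.433 and 0.361 in edited 8-cell libraries. The ratio of PFN1 to ACTB was 0.137 and 0.0944 in control 4-cell, 0.395 and 0.303 in edited 4-cell, 0.253 and 0.218 in control 8-cell, and 0.595 and 0.531 in edited 8-cell libraries. Both ratios were higher in edited than in control embryos at each stage, with no overlap and with no test. Since ACTB fell more than CFL1 and PFN1 at each stage, these ratios restate the fold changes given above and add no further result.

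ARPC2 encodes a core subunit of the Arp2/3 complex. It had 2131 and 1518 CPM in control 4-cell, 421 and 476 in edited 4-cell, 970.0 and 859.9 in control 8-cell, and 459.6 and 507 in edited 8-cell libraries. The edited groups of the 2 stages overlapped with each other and lay below both control groups. ARPC2 fell by 2.005 (SE 0.218, adjusted p 4.5e-06) in 4-cell and by 0.92 (adjusted p 0.00725) in 8-cell embryos.

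The contractile members fell at both stages. MYL6, the essential light chain of non-muscle myosin II, had 1841 and 1911 CPM in control 4-cell, 241 and 308 in edited 4-cell, 746 and 1041 in control 8-cell, and 194 and 180.0 in edited 8-cell libraries. MYL9, a regulatory light chain that is prominent in smooth muscle, was the member with the fewest reads, at 94.0 and 91.5, 14.8 and 19.1, 31.2 and 46.4, and 13.7 and 13 CPM in the same order. For both light chains every edited library lay below every control library. MYL6 fell by 2.78 (SE 0.222, adjusted p 6.43e-07) and by 2.23 (adjusted p 6.32e-06), and MYL9 by 2.39 (SE 0.285, adjusted p 9.66e-06) and by 1.45 (adjusted p 0.00181). TPM1, a tropomyosin, had 1259.9 and 1292 CPM in control 4-cell, 145 and 254 in edited 4-cell, 516 and 537 in control 8-cell, and 77.4 and 63.0 in edited 8-cell libraries. Its control libraries agreed closely within each stage, and the edited 8-cell libraries were the lowest of all. TPM1 fell by 2.73 (SE 0.248, adjusted p 1.2e-06) and by 2.90 (adjusted p 2.53e-06), the greatest fall of a member at the 8-cell stage, where ACTB had led at the 4-cell stage.

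**Figure D4:**
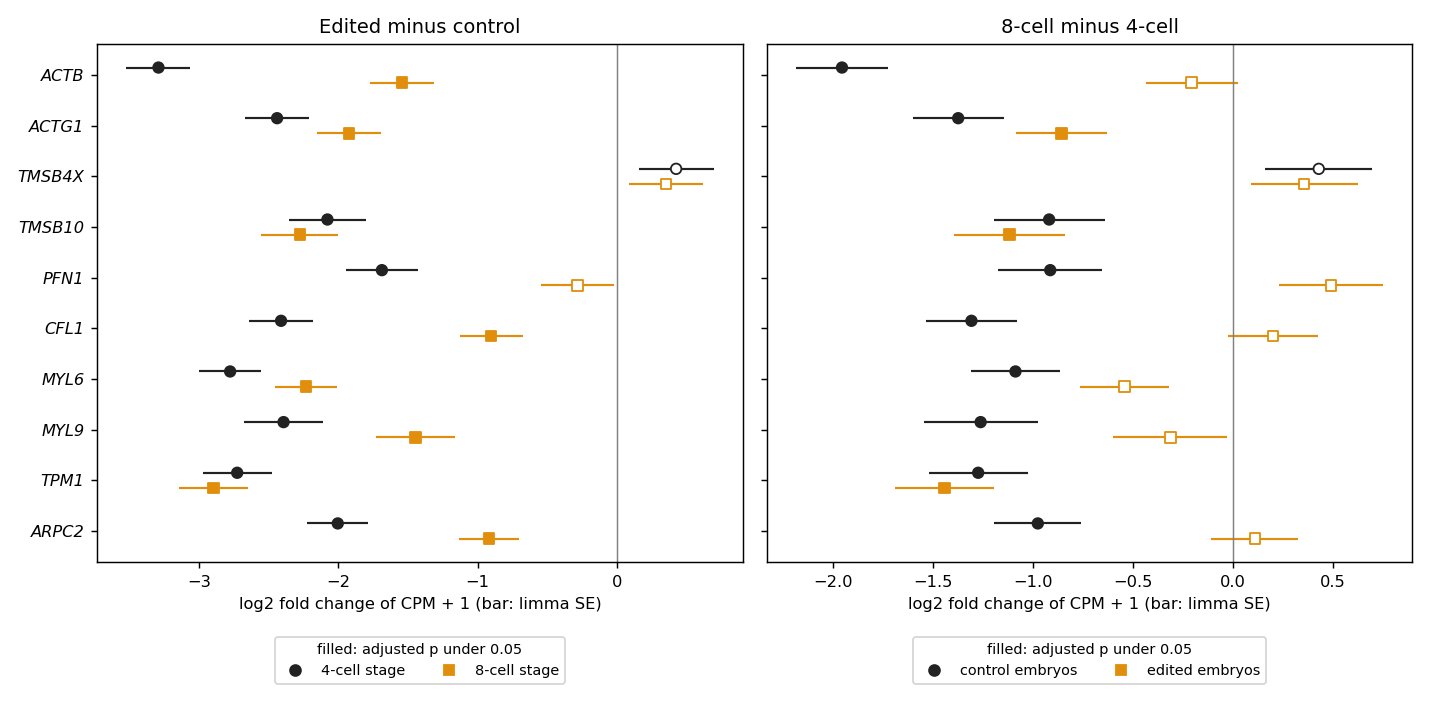
Log2 fold change of CPM + 1 for each member, edited minus control at each stage (left) and 8-cell minus 4-cell in control and edited embryos (right), with bars of 1 limma SE; filled symbols have an adjusted p under 0.05. On the left, ACTB, PFN1 and CFL1 show the widest gaps between stages, and TMSB4X alone lies above 0 at both.

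These values are on the log2(CPM + 1) scale, from 1 limma fit over the 8 libraries with Benjamini-Hochberg adjustment over all genes. The sums given above for the cumulus and granulosa list, and for the fibroblast, theca and smooth muscle list, were also lower in edited embryos at each stage. The endothelium sum was not. At the 8-cell stage 13 of the 19 cumulus and granulosa markers tested were not called and 14 had values below 0. STAR (0.38), HAS2 (0.49) and PTGS2 (0.73) had uncalled values above 0 there. At the 8-cell stage 3 calls rested on single libraries: without the second control 8-cell library CFL1 had -0.68 (adjusted p 0.172) and MYL9 an adjusted p of 0.053, without the first control 8-cell library ARPC2 had 0.052, and without the first or second edited 8-cell library CFL1 had 0.0794 and 0.077 and, without the first, ARPC2 had 0.0889. Over all 20 alternatives the adjusted p of CFL1 ran from 0.00377 to 0.172, that of MYL9 from 2.59e-05 to 0.053 and that of ARPC2 from 0.00174 to 0.0889. How the authors' counting treated reads of the members other than TMSB4X that match several genes was not tested.

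The difference between the stages in the effect of editing was tested directly. It was called for 3 members, all with a smaller fall at the 8-cell stage, where 1.95% of all genes had a difference called in the positive direction and 2.00% in the negative. ACTB differed by 1.75 on the log2 scale (SE 0.325, adjusted p 0.0202), CFL1 by 1.51 (SE 0.321, adjusted p 0.0272) and PFN1 by 1.40 (SE 0.370, adjusted p 0.0452). ARPC2 had 1.09 (adjusted p 0.0587), MYL9 0.95 (adjusted p 0.172), MYL6 0.55 (adjusted p 0.312) and ACTG1 0.52 (adjusted p 0.353). TMSB4X (-0.07), TMSB10 (-0.20) and TPM1 (-0.17) had values near 0, with SEs of 0.351 to 0.392. Control levels of ACTB, CFL1 and PFN1 were lower at the 8-cell stage, and their edited levels were not called different between stages. The calls depended on the test and on single libraries: edgeR called 0 of the 10 members (4 at an unadjusted p under 0.05, against 5 with limma and 4 calls with DESeq2), and 1 was called without the first control 4-cell library and 0 without the first control 8-cell library or without any 1 of the 4 edited libraries.

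The comparison of stages asks how the transcripts changed over 1 cleavage division. It shares its libraries with the comparisons above, so its values are set beside them and not counted as further support. In controls, 9 members were lower in 8-cell than in 4-cell embryos, and TMSB4X had 0.43 (SE 0.269, adjusted p 0.303). Of all genes, 6.27% were lower and 2.75% higher; with median-of-ratios scaling 888 genes were lower and 189 higher, against 760 and 334. ACTB fell by 1.96 (SE 0.230, adjusted p 0.00137), ACTG1 by 1.38 (adjusted p 0.0083) and CFL1 by 1.31 (adjusted p 0.00924). TPM1 fell by 1.28, MYL9 by 1.26, MYL6 by 1.09, ARPC2 by 0.98, TMSB10 by 0.92 and PFN1 by 0.91, with adjusted p-values between 0.0127 and 0.0493. The TMSB10 call was lost with a pseudocount of 0.5 CPM (limma adjusted p 0.0549), median-of-ratios scaling (0.0586) and the replicate block (0.0534). Without the first control 4-cell library the log2 fold change of TMSB10 was -0.45 and that of PFN1 -0.51. The 9 calls were 2 with edgeR, 0 with no filter on low values, 3 when only these 4 libraries were fitted, and 1 without the first control 4-cell or the first control 8-cell library. Cumulus and granulosa markers, and those of fibroblasts, theca and smooth muscle, also summed lower in control 8-cell than in control 4-cell libraries, as given above. Of the 19 cumulus and granulosa markers tested 2 were lower and 1 higher, and of the 8 others 3 were lower (COL1A2, ACTA2 and TAGLN); their part in the result was not tested.

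In edited embryos 3 members were lower at the 8-cell stage, where 3.73% of all genes were lower and 1.45% higher. TPM1 fell by 1.44 (SE 0.248, adjusted p 0.0064), TMSB10 by 1.12 (SE 0.277, adjusted p 0.0317) and ACTG1 by 0.86 (SE 0.228, adjusted p 0.0416). The others lay between -0.54 for MYL6 (adjusted p 0.168) and 0.49 for PFN1 (adjusted p 0.298), with ACTB at -0.21 (adjusted p 0.648), CFL1 at 0.20 and ARPC2 at 0.11. No member was called higher. Markers of fibroblasts, theca and smooth muscle summed to 1453 and 2089 CPM in edited 4-cell and 241 and 864 CPM in edited 8-cell libraries, and 2 of the 8 tested were lower, COL1A2 with a log2 fold change of -2.78 and LUM with -2.37. Of the 19 cumulus and granulosa markers 1 was lower, and the part of either list in the result was not tested. The 3 calls were 1 with edgeR or without the first edited 8-cell library, and 0 with no filter or without the second edited 4-cell or the second edited 8-cell library.

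A wider list of 164 actin genes, members not included and written with earlier results of these data known, shows how the rest of the system stood. Of the 145 tested, 48 (33.1%) were lower and 27 (18.6%) higher in edited 4-cell embryos, with a median log2 fold change of -0.03, and 31 (21.4%) were lower and 0 higher at the 8-cell stage, with a median of -0.06. In this limma fit 4 were higher at the 8-cell stage at an unadjusted p under 0.05, and edgeR and DESeq2 also called 0 higher, whereas 2 were called higher with only the libraries compared and 1 without the first control 8-cell library. Over all genes 25.8% were lower and 18.9% higher at the 4-cell stage, and 14.5% were lower and 1.08% higher at the 8-cell stage. The shares of the list called higher were thus close to those of all genes. The medians of the list were near 0, as were those of all genes. Without the second control 8-cell library the 31 calls became 20. Named below are, for each role described, the 3 genes with the highest mean CPM and the called gene with the greatest rise; SEs of their fold changes lay between 0.200 and 0.390.

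**Figure D5:**
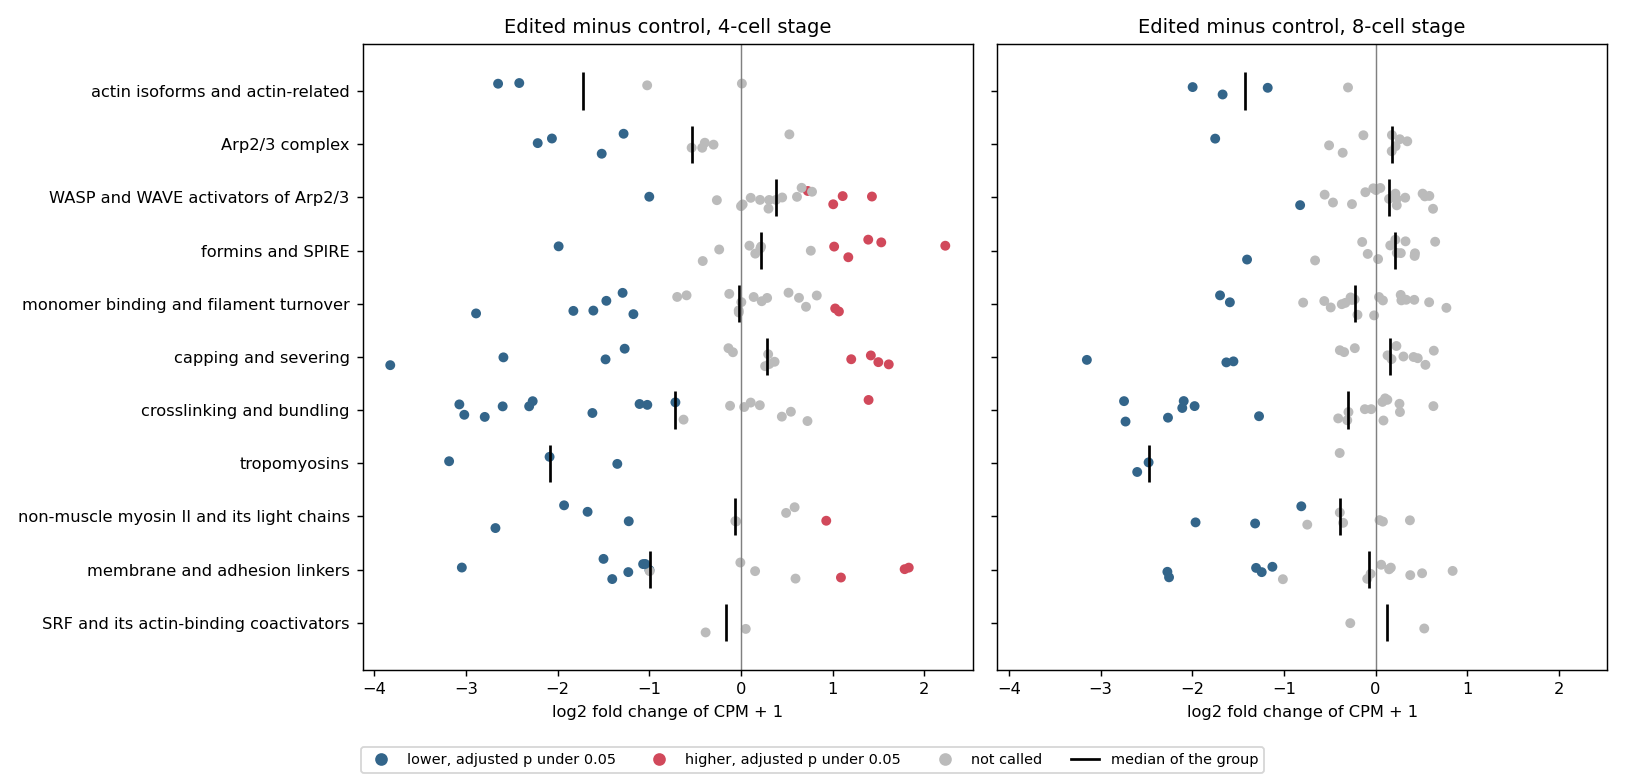
Log2 fold change of CPM + 1, edited minus control, of 125 tested genes of the wider actin list in 11 roles at the 4-cell (left) and 8-cell stage (right); points are genes, coloured where the adjusted p is under 0.05, and black bars are medians. Tropomyosins lie wholly to the left at both stages, and the 20 called rises drawn are all at the 4-cell stage. Over all genes tested, 18.9% were called higher at the 4-cell stage and 1.08% at the 8-cell stage.

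Shares lower at the 4-cell stage were 100% of tropomyosins, 52.6% of crosslinkers and 50% of both actin isoforms and membrane and adhesion linkers. They were 44.4% of Arp2/3 and of myosin II genes, against 25.8% of all genes. At the 4-cell stage 18.9% of all genes were higher, and at the 8-cell stage 14.5% were lower. Of the 3 other tropomyosins, all fell at the 4-cell stage, TPM2 by 3.19, TPM4 by 2.09 and TPM3 by 1.35, and at the 8-cell stage TPM4 fell by 2.60 and TPM2 by 2.48, while TPM3 had -0.39 (adjusted p 0.298). TPM2 had 648 and 471 CPM in control 4-cell and 50.7 and 70.5 CPM in edited 4-cell libraries, a gap wider than any spread within a group. Among 4 tested actin isoforms and actin-related genes 2 fell at the 4-cell stage, the smooth muscle actins ACTG2 (by 2.65) and ACTA2 (by 2.42), and 3 at the 8-cell stage, where ACTG2 fell by 1.67. ACTL6A, an actin-related subunit of chromatin remodellers, had 0.01 (adjusted p 0.983). Of 19 crosslinking and bundling genes 10 fell and 1 rose at the 4-cell stage, and 7 fell at the 8-cell stage. TAGLN2 and TAGLN, the transgelins, fell by 3.07 and 3.02 at the 4-cell and by 2.26 and 2.11 at the 8-cell stage; CNN3, a calponin, fell by 0.72 at the 4-cell stage, and the bundler PLS1 rose by 1.39. ACTA2 and TAGLN are also on the smooth muscle marker list, whose sum fell. Of 9 genes of myosin II, 4 fell and 1 rose at the 4-cell stage and 3 fell at the 8-cell stage. The regulatory light chains MYL12A and MYL12B fell by 1.67 and 1.23, then by 1.31 and 0.81. PPP1CB, the catalytic subunit of myosin phosphatase, had 0.58 (adjusted p 0.0508), and its targeting subunit PPP1R12A rose by 0.93 at the 4-cell stage.

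Regulators of assembly had calls in both directions at the 4-cell stage, where 25.8% of all genes were lower and 18.9% higher. At the 8-cell stage 14.5% of all genes were lower. Of 9 Arp2/3 genes 4 fell at the 4-cell stage and 1 at the 8-cell stage. ARPC5 fell by 2.06 and by 1.75 at the 2 stages and ARPC5L, its paralogue, by 1.28 at the 4-cell stage, while ACTR3, one of the actin-like subunits, had -0.42 (adjusted p 0.124). ARPC2 thus belonged to the subunits that fell, and the ACTR3 subunit of the same complex did not pass the test. Of 17 genes of the WASP and WAVE families, which switch on Arp2/3, 4 rose and 1 fell at the 4-cell stage. NCKAP1 rose by 1.43 and ABI1 by 0.73, both parts of the WAVE complex, and WASHC3, of the WASH complex, had -0.26 (adjusted p 0.401) and fell by 0.82 at the 8-cell stage. Of 13 formin and SPIRE genes, which start unbranched filaments, 5 rose and 1 fell at the 4-cell stage. FMNL2, a formin, had 74.2 and 152 CPM in control 4-cell, 523 and 482 in edited 4-cell, 288 and 216 in control 8-cell, and 296 and 284 in edited 8-cell libraries. It rose by 2.23 at the 4-cell stage (adjusted p 1.56e-05), its value at the 8-cell stage was 0.22, and the stages differed by -2.01 (adjusted p 0.0219). DAAM1 rose by 1.39 and SPIRE1 had 0.21 (adjusted p 0.512).

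Among 21 genes of monomer binding and turnover 6 (28.6%) fell and 2 (9.52%) rose at the 4-cell stage. At the 8-cell stage 2 (9.52%) fell. Over all genes 25.8% were lower and 18.9% higher at the 4-cell stage, and 14.5% were lower at the 8-cell stage. The relatives of CFL1 did not pass the test: DSTN, or destrin, had -0.13 (adjusted p 0.637) and -0.23 (adjusted p 0.513), and CFL2 had 0.00 and -0.27. DSTN had 1739.7 and 1641 CPM in control 4-cell and 1669 and 1430.0 CPM in edited 4-cell libraries, so that its groups overlapped where those of CFL1 did not. TWF1, which caps filaments and binds monomers, rose by 1.07 at the 4-cell stage. Of 14 capping and severing genes 4 fell and 4 rose at the 4-cell stage (28.6% each) and 3 (21.4%) fell at the 8-cell stage. CAPZA1, of the barbed-end capping protein, had 0.26 (adjusted p 0.364), while TMOD1, a pointed-end cap, rose by 1.42, ADD3, an adducin, by 1.5 and CARMIL1, a regulator of capping protein, by 1.61. GSN, gelsolin, was chosen after its values were seen as the greatest fall of the list, by 3.83 in 4-cell and by 3.15 in 8-cell embryos.

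Of 14 linkers to membrane and adhesions 7 (50%) fell and 3 (21.4%) rose at the 4-cell stage, against 25.8% and 18.9% of all genes. At the 8-cell stage 5 (35.7%) fell, against 14.5% of all genes. Of the membrane linkers of the ERM family, EZR had -0.01 (adjusted p 0.983) and RDX rose by 1.83, and the adhesion protein TLN2 rose by 1.09. MRTFA and MRTFB, the coactivators of SRF that sense free actin monomer and act on actin genes, had -0.39 (adjusted p 0.446) and 0.05 (adjusted p 0.905) at the 4-cell stage. The difference between stages was called for 9 genes of the list, positive for ARPC1A, ARPC1B and CORO1C and negative for 6 others, FMNL2, CARMIL1 and RDX among them; edgeR called 0 genes of the list (13 positive and 29 negative at an unadjusted p under 0.05), and 0 were called without any 1 of the 4 edited libraries. In the stage comparisons 16 of the 145 genes were lower and 6 higher at 8 cells in controls (11% and 4.14%, against 6.27% and 2.75% of all genes), and 8 were lower and 4 higher in edited embryos (5.52% and 2.76%, against 3.73% and 1.45%). Without the first control 4-cell library 0 of these genes differed between stages in controls, and without the second edited 4-cell library 0 did in edited embryos.

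The genes with the profile most like that of ACTB were looked for among the 7435 other genes whose mean reached 10 CPM, by the root mean square difference of log2(CPM + 1) profiles, each centred on its mean over the 8 libraries. The 5 nearest were MRPS34, a mitochondrial ribosomal protein (0.17), TMED3, a cargo receptor of the secretory pathway (0.20), and TSSC4, CD81 and RBP4 (0.21 each), of which the TSSC4 and CD81 rows hold the same reads. MRPS34 had 80.3 and 50.5 CPM in control 4-cell, 5.41 and 5.64 in edited 4-cell, 13 and 25.1 in control 8-cell, and 4.72 and 4.67 in edited 8-cell libraries. None of the 5 is an actin gene. Among the members ACTG1 and MYL6 were nearest to ACTB (0.36 each), followed by MYL9 (0.38), CFL1 (0.48), TMSB10 (0.54), TPM1 (0.61), ARPC2 (0.63), PFN1 (0.86) and TMSB4X (1.66). Among the 7435 genes ACTG1 ranked 108, MYL6 112, MYL9 130, CFL1 306 and PFN1 1243. Many genes outside the members thus lay nearer to ACTB than any other member did.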

How the data were processed

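RNA of 8 pools of bovine embryos was captured, amplified with a Smart-seq2 v4 kit and tagmented with a Nextera XT kit, per the labels' protocols. Per the submitters' processing notes, the authors used Trim Galore 0.6.7, HISAT2 2.2.1 and featureCounts 2.0.1; the genome build, the annotation and strand use are not given in the sources used here. The deposited values are CPM by gene symbol, not the raw counts of the table's name: within 0.05 reads, 100% of positive values are whole multiples of 1 step per library, and reads were recovered from these steps. Of 12 columns, 8 match a sample and 4 were not used.

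The main test was limma 3.58.1 (R 4.3.3, variance trend) on log2(CPM + 1), with 1 mean per group, all 8 libraries and genes whose mean reached 1 CPM (12129). P-values were adjusted by the Benjamini-Hochberg method over all of them and called under 0.05. With 2 libraries in each group an exact permutation test cannot reach 0.05. Only the limma test of editing at the 4-cell stage was checked on simulated counts, in which far fewer genes changed than were called here. The other comparisons, edgeR and DESeq2 were not checked in this way. Alternatives were pseudocounts of 0.5 and 5 CPM, no filter and a mean of 10 CPM, other scalings, edgeR 4.0.16 and DESeq2 1.42.0 on recovered reads, a replicate block, only the libraries compared and each library left out; a crossed block and 1 row per set of identical reads were added after the data were seen.

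Members, lists and tests were chosen with earlier results of these data known. Named were all members, in each role of the wider list the 3 genes of highest mean CPM and the called gene with the greatest rise at the 4-cell stage, and the 5 genes most like ACTB. The genes of 1 role are counted in the wider list but not reported here by themselves. All 10 members matched the RefSeq gene table, which was used for names only; no sequence is printed.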

Additional observations from a re-analysis of the deposited data

Results flagged for a closer look

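For 3 members the effect of editing differed between the stages by the limma test of the difference itself. ACTB had a difference of 1.75, CFL1 of 1.51 and PFN1 of 1.40 on the log2 scale, 8-cell minus 4-cell, each a smaller fall at the 8-cell stage. Over 19 alternatives the call held in 12 for ACTB, 11 for CFL1 and 10 for PFN1, and the adjusted p ran from 0.000632 to 0.107, from 0.00215 to 0.132 and from 0.00312 to 0.183.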

How the results depend on the processing

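At the 4-cell stage 9 members were called in every 1 of the 20 alternatives run, and at the 8-cell stage 8 were called in all but those that left out an 8-cell library (6 to 7); no member changed direction in either comparison. Counts of members called moved as follows. Between stages in controls (9) they were 0 with no filter on low values, 2 with edgeR, 3 with only the libraries compared and 1 to 9 with a library left out. Between stages in edited embryos (3) they were 0 with no filter, 1 with edgeR and 0 to 3 with a library left out. For the difference of the effect (3) they were 0 with no filter, 0 with edgeR and 0 to 4 with a library left out. In the wider list, 31 called at the 8-cell stage became 20 to 30 with a library left out, the fewest without the second control 8-cell library. Between stages in controls, 22 became 0 with no filter, 2 with edgeR, 4 with only the libraries compared, and 0 to 36 with a library left out. Between stages in edited embryos, 12 became 1 with no filter, 6 with edgeR, 20 with DESeq2, 22 with only the libraries compared, and 0 to 18 with a library left out. For the difference of the effect, 9 became 0 with no filter, 0 with edgeR, 15 with DESeq2, and 0 to 26 with a library left out. The cause was not tested. Uncalled differences of the effect turned sign with 1 library left out for TMSB4X (-0.43 to 0.29), TMSB10 (-0.67 to 0.27) and TPM1 (-0.57 to 0.23).

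Over all genes, the limma count between stages in controls, 1094, was 1 with no filter, 86 with edgeR and 161 with only the libraries compared; that in edited embryos, 628, was 17, 324 and 1149, and 1286 with DESeq2; and that of the difference, 480, was 0 with no filter (2993 at an unadjusted p under 0.05), 18 with edgeR and 1065 with DESeq2. With 1 library left out these 3 counts ran from 13 to 2114, from 7 to 966 and from 0 to 1396, and the 8-cell count of editing, 1895, was 1021 without the second control 8-cell library. The median of all genes moved by 0.11 with edgeR at the 4-cell stage, less than any called fall of a member. With the 10 CPM filter it moved by 0.16 because it was taken over fewer genes (7436). That filter left the fold change of each gene as it was.

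Replicate numbers of the groups were not shown to pair libraries: same-numbered libraries had deviations correlated at 0.11 (editing, 4-cell), -0.09 (editing, 8-cell), -0.30 (stages, control) and 0.02 (stages, edited). With the replicate block 9 members were called for editing in 4-cell and 8 in 8-cell embryos, 8 and 3 between stages in control and edited embryos, and 3 for the difference; the wider list had 73, 30, 18, 10 and 6. With the control 8-cell numbers crossed in the block the wider list had 35 calls between stages in controls and 16 for the difference.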

Other observations

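The genes whose profile over the 8 libraries was most like that of TMSB4X were looked for after its values were seen, by the same measure as for ACTB. Apart from the row TMSB4, which holds the same reads, they were ZNF706 (0.12), NUSAP1, a spindle protein (0.13), LOC101903758 (0.13) and FRAT1 (0.14). ZNF706 had 478 and 345 CPM in control 4-cell, 521 and 499.8 in edited 4-cell, 516 and 468 in control 8-cell, and 582 and 585 in edited 8-cell libraries, so that its edited libraries lay above its controls at each stage.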
